A study of Homo sapiens with 24 samples.

Results

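The genes described here are the nuclear genes of mitochondrial ribosomal proteins (MRPL and MRPS genes) and the mitochondrial genome's own protein-coding mRNAs. They were chosen by name: MRPL or MRPS followed by a number and an optional letter, and MT- names of the ND, CO, ATP and CYB families. The rule found 91 of the 58138 gene names, of which 49 were MRPL genes, 29 were MRPS genes and 13 were mitochondrial mRNAs. The rule itself uses names alone.

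The study lowered or introduced RPRD proteins, which bind the C-terminal domain of RNA polymerase II, in human kidney-derived cell lines, and counted polyadenylated RNA from its 3′ ends. In HEK293T cells, siRNAs were given for 48 h in 8 groups: CTRL (control siRNA), single silencing of RPRD2_KD, RPRD1B_KD or RPRD1A_KD, double silencing labelled RPRD1B_RPRD2_KD, RPRD1A_RPRD2_KD or RPRD1A_RPRD1A_KD (which names RPRD1A in both positions), and triple silencing (RPRD1A_RPRD1B_RPRD2_KD). In Flp-In T-REx 293 cells, a related line that carries the tetracycline repressor and a single integration site, there were 4 groups: the untreated FLP and RPRD1B_FL, and the same lines given tetracycline for 48 h, FLP_TET and RPRD1B_FL_TET. All 8 Flp-In libraries come from lines of the tetracycline-switched system, the labels do not explain FL or say whether RPRD1B_FL is 1 clone, and the tetracycline dose is not given in the sources used here. Each of the 12 groups had 2 libraries, and the labels do not say that they came from separate cultures, so p-values measure only the spread between these libraries.

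The mitochondrial ribosome translates the mRNAs of the mitochondrial genome, which encode core subunits of the respiratory chain and ATP synthase. Its RNAs are made inside the organelle, but all of its proteins are encoded in the nucleus, made in the cytosol and imported. Tetracyclines bind bacterial ribosomes and also inhibit translation in mitochondria, so the inducer used in the Flp-In lines is itself an agent that acts on this machine. Cells in which mitochondrial translation is blocked are known to raise genes of the integrated stress response.

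Promoter sequences of the mitoribosomal genes are shown first because of 1 string that their names do not define. This string, AAGATGGC, stood in 20 of 69 promoter windows, more often than in those of other genes. RefSeq windows of 250 bases before to 50 after the start were found for 69 of the 78 mitoribosomal genes in GRCh38.p14. A total of 4 upstream stretches of 250 bases are printed, of the genes that differed most between the Flp-In lines (MRPL36, MRPS6) and of another pair described below (MRPL52, MRPL39). Capitals mark matches, on either strand, to CCGGAAGT (ETS-type), AAGATGGC (YY1-type) or GCGC, any base and TGCGC (NRF1-type).
MRPL36, minus strand of chr5:1799838-1800087: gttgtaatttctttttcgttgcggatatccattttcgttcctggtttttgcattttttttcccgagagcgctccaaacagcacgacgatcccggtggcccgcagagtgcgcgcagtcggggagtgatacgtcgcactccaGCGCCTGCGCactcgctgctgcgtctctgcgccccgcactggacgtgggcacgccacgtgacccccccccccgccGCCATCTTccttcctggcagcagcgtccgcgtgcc
MRPL52, plus strand of chr14:22829637-22829886: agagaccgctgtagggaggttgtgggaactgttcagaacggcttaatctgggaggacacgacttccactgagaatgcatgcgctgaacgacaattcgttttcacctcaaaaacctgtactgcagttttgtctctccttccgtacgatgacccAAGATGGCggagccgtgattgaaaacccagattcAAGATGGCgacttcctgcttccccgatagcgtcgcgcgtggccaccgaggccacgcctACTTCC
MRPS6, plus strand of chr21:34073328-34073577: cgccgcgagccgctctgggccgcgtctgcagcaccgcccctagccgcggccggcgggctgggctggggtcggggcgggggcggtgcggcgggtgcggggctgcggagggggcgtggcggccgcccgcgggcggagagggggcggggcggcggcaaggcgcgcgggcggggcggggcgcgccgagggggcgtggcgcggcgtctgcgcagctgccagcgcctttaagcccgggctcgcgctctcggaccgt
MRPL39, minus strand of chr21:25607482-25607731: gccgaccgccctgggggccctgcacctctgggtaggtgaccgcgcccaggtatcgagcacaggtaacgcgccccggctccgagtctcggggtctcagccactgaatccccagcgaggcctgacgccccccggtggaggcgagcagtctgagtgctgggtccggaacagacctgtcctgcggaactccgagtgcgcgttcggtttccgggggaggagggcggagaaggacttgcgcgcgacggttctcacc

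The MRPL36 stretch holds an NRF1-type and a YY1-type match, and the MRPL52 stretch holds a pair of YY1-type matches and, at its end, 6 of the 8 letters of an ETS-type match that runs past the start. The stretches of MRPS6 and MRPL39 hold none of these letters. Over all windows, AAGATGGC was present in 20 of 69 mitoribosomal promoters (29%), against 6.02% of the 8458 promoters of genes tested in both cell lines and 3.03% of all 27305 promoters of the same length. It was as frequent in MRPS windows (29.6%) as in MRPL windows (28.6%). In 15 of the 20 genes it lay only in the bases after the start, where its ATG can also be a start codon, and in 5 genes it lay before the start. CCGGAAGT was present in 15.9% of the mitoribosomal windows, against 9.87% and 4.44%. The NRF1-type letters were no more frequent than among expressed genes, at 11.6% against 13.1% and 6.28%, and include the strict form with A between GCGC and TGCGC, found in 1.45%. CCAAT stood in 29% against 37.4% and 35.7%, and TATAAA in 2.9% against 4.71% and 12%. The strings other than the 2 NRF1-type forms do not contain one another. These are matches of letters, not sites.

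None of the 13 mitochondrial mRNAs could be described. MT-ND1, MT-ND2, MT-ND3, MT-ND4, MT-ND4L, MT-ND5 and MT-ND6 (complex I), MT-CYB (complex III), MT-CO1, MT-CO2 and MT-CO3 (complex IV) and MT-ATP6 and MT-ATP8 (ATP synthase) are listed at 0 in each of the 24 libraries. So are the other mitochondrial genes, rRNAs and tRNAs included: all 37 MT- names are at 0, in cells that need them. Nothing about their level or their response to tetracycline can be read from these values. Of 405 names of nuclear copies of mitochondrial genes, 34 had any count, with 1178 counts in all libraries together, most of them under MTATP6P1 (20 to 63 counts a library).

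The 78 mitoribosomal genes took 0.876% to 1.00% of the gene counts of a library, which held 1817246 to 3531106 gene counts. A total of 3 counts corresponded to 0.85 to 1.65 CPM, the count scaled to the size of the library. In both cell lines 74 of them passed the filter on low counts, and these 74 had counts in every library. The other 4 were close to 0 throughout: MRPL53 had 1 count, MRPL23 3, MRPL38 15 and MRPS24 54 over all 24 libraries. In GENCODE 29, another gene of the same strand covers the last 500 bases of 3 of these 4 (CCDC142 over MRPL53, AC087289.3 over MRPL38 and the read-through gene URGCP-MRPS24 over MRPS24), and MRPL23-AS1 lies opposite MRPL23. Such overlaps are not rare among the 78: 11 have a same-strand and 26 an opposite-strand neighbour there, and how reads of overlapping genes were assigned is not given in the sources used here. Of 7 markers of the 293 lines, all had counts in every library, VIM at 71.8 to 391 CPM and KRT18 at 14.9 to 124. The other 5 reached down to about 3 counts or fewer in some libraries: NEFL (1.05 to 152 CPM), KRT8 (1.57 to 60.3), NEFM (0.68 to 20.8), PAX2 (0.55 to 9.62) and NES (0.47 to 6.54). Of 8 markers of blood, liver, endothelium and fibroblasts, which summed to 4.4 to 15.6 CPM, COL1A1 had counts in every library (1.14 to 14.5 CPM) and HBA1 reached 4.93 CPM, while CD3E and COL1A2 were at 0 in all and the other 4 stayed under 1 CPM.

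Because reads come from the 3′ end of each transcript, CPM values can be set beside each other between genes without a length term. On that scale the genes of 1 particle spanned a wide range. MRPL4, a protein of the core of the large subunit, had the highest median over all 24 libraries, of which 16 are HEK293T (656 CPM, 477 to 924). MRPS18B (529, 427 to 738) and MRPL12, the stalk protein that contacts translation factors (527, 133 to 734), followed, and these 3 genes held 18.3% of the 566760 counts of all members. The order was not the same in the 8 Flp-In libraries, where MRPS18B (median 659 CPM) stood above MRPL4 (577) with overlapping ranges and MRPL12 was at 209. The lowest of the tested genes over all libraries were MRPL50 (21.9 CPM), MRPL39 (20.3) and MRPL2 (17.98), whose ranges overlap one another. In Flp-In cells alone MRPL2 was at 34.3 CPM, and the lowest were MRPL50 (10.7), MRPL39 (18.5) and MRPL48 (20.8).

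The cell lines differed most in MRPL12. Its level was 133 to 301 CPM in the 8 Flp-In libraries (median 209) and 426 to 734 CPM in the 16 HEK293T libraries (median 617), a ratio of medians of 0.339 with no overlap. In 8 of the 74 genes all Flp-In libraries lay below all HEK293T libraries, which was so for 10.5% of the 11107 genes tested in both lines: besides MRPL12 these were MRPL3, MRPL11, MRPL15, MRPS18C, MRPL1, MRPS17 and MRPL48, with ratios of medians from 0.415 (MRPS17) to 0.745 (MRPL11). In 6 genes they lay above (8.33% of all genes): MRPS12, which lies at the decoding site, 2.34-fold, MRPL2 2.08-fold, and MRPL20, MRPS34, MRPL45 and MRPL14 between 1.47-fold and 1.77-fold. Both shares, 8 and 6 of 74, are close to those of all genes. In bulk RNA, fewer cells of a type and less RNA per cell cannot be told apart. Cell line cannot be told apart from siRNA transfection, since every HEK293T library was transfected and no Flp-In library is labelled so. The libraries of the lines also differed in reads outside genes, 15.3% to 19.5% of reads in Flp-In and 27.4% to 36.7% in HEK293T. The part of that difference in these ratios was not tested. Without the second RPRD1A_RPRD2_KD library, described below, the counts were 9 below (12.9% of all genes) and 8 above (9.07%).

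**Figure D1:**
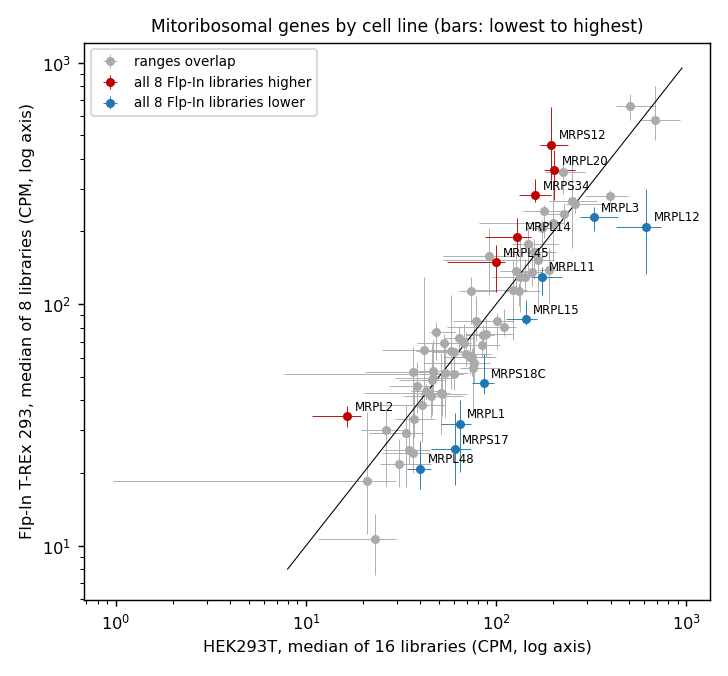
Median level of each of 74 mitoribosomal genes in the 16 HEK293T libraries (horizontal, CPM, log axis) and the 8 Flp-In T-REx 293 libraries (vertical, CPM, log axis), with bars from the lowest to the highest library and a line of equality. Most genes lie along the line; MRPL12 lies farthest below it, and MRPS12 and MRPL2 are the farthest above among the genes whose ranges do not overlap.

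With tetracycline the mitoribosomal genes as a group stayed close to the median of all genes, and a few single genes passed the test. In FLP cells the median log2 fold change of the 74 genes was 0.03 (39 above 0, 35 below), beside -0.01 for all 11948 genes tested, and in RPRD1B_FL cells it was 0.05 (51 above 0, 23 below), beside 0. In FLP cells 1 of 74 genes was called at an adjusted p under 0.05 (edgeR quasi-likelihood test, Benjamini-Hochberg over all genes tested), beside 1.02% of all genes. In RPRD1B_FL cells 0 of 74 were called by edgeR and by DESeq2, with 0% of all genes called by edgeR, and 4 mitoribosomal genes had an unadjusted p under 0.05, all higher, beside 2.95% of all genes higher and 3.19% lower. In RPRD1B_FL cells RPRD1B had 42.73 and 45.16 CPM without tetracycline and 79.09 and 64.45 with it. In FLP cells RPRD1B had 35.47 and 34.83 CPM without and 29.16 and 28.3 with it. RPRD1A was lower with tetracycline in RPRD1B_FL cells and overlapped in FLP cells. A mean over both lines thus includes the change of these genes in RPRD1B_FL cells, and its part was not tested. For the mean effect over both lines 5 of 74 were called, beside 2.98% of all genes: MRPL10, MRPL41 and MRPL4 rose, and MRPL39 and MRPL19 fell. These counts rest on single libraries. For the mean effect none was called without FLP replicate 1, RPRD1B_FL replicate 2, either FLP_TET library or RPRD1B_FL_TET replicate 1. More were called without RPRD1B_FL replicate 1, FLP replicate 2 or RPRD1B_FL_TET replicate 2. In FLP cells more were called without FLP replicate 2, and none when any other of the compared libraries was left out. In RPRD1B_FL cells some were called without RPRD1B_FL_TET replicate 2. Such fits leave 1 library in a group, and the share of all genes they called is not given here. The larger numbers are therefore not read as a response of the mitoribosomal genes.

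MRPL10, which forms the base of the ribosomal stalk, was the 1 gene called in FLP cells alone. Its level was 34.3 and 33.3 CPM in FLP, 60.5 and 56.6 in FLP_TET, 43.9 and 47.2 in RPRD1B_FL, and 70.6 and 58.2 in RPRD1B_FL_TET. The 4 treated libraries all lay above the 4 untreated ones. The log2 fold change was 0.79 (SE 0.18, edgeR adjusted p = 0.0468) in FLP cells, 0.50 (SE 0.18, adjusted p = 0.788) in RPRD1B_FL cells and 0.65 (SE 0.13, adjusted p = 0.0255) for the mean. The call in FLP cells was lost on leaving out any 1 of the 4 libraries compared (adjusted p 0.0571 to 0.629), and that for the mean without FLP replicate 1, either FLP_TET library, RPRD1B_FL replicate 2 or RPRD1B_FL_TET replicate 1 (0.072 to 0.186).

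MRPL41, a large-subunit protein with no bacterial counterpart, had 167 and 212 CPM in FLP, 264 and 312 in FLP_TET, 277 and 241 in RPRD1B_FL, and 430.0 and 294 in RPRD1B_FL_TET. Treated libraries were above untreated ones within each line, but FLP_TET replicate 1 lay below RPRD1B_FL replicate 1. Its mean log2 fold change was 0.54 (SE 0.12, edgeR adjusted p = 0.0362). MRPL4 had 466 and 548 CPM in FLP, 754 and 739 in FLP_TET, 597 and 488 in RPRD1B_FL, and 851 and 565 in RPRD1B_FL_TET. Its groups did not overlap in FLP cells and overlapped in RPRD1B_FL cells, and the mean log2 fold change was 0.47 (SE 0.12, edgeR adjusted p = 0.0425).

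MRPL39, a large-subunit protein of mitochondria related to threonyl-tRNA synthetase, had 35 and 25.8 CPM in FLP, 17.99 and 13.98 in FLP_TET, 19.3 and 21.4 in RPRD1B_FL, and 11.8 and 16.3 in RPRD1B_FL_TET. Every treated library was below every untreated one, and the mean log2 fold change was -0.73 (SE 0.18, edgeR adjusted p = 0.0406). MRPL19, a conserved large-subunit protein, had 60.2 and 54.1 CPM in FLP, 33.04 and 31.1 in FLP_TET, 50.2 and 64.9 in RPRD1B_FL, and 27.9 and 56.9 in RPRD1B_FL_TET. The groups did not overlap in FLP cells, overlapped in RPRD1B_FL cells through RPRD1B_FL_TET replicate 2, and the mean log2 fold change was -0.64 (SE 0.17, edgeR adjusted p = 0.0457).

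Other genes with large differences did not pass the test. In FLP cells the levels of 26 of 74 genes were higher and of 26 lower in both treated libraries than in both untreated ones, beside 29.1% and 28.9% of all genes. Among the higher were MRPL12 (log2 fold change 0.67, SE 0.25), MRPL41 (0.60, SE 0.18), MRPL28 (0.57, SE 0.24) and MRPL4 (0.56, SE 0.17). Among the lower were MRPL39 (-0.91, SE 0.24), MRPL19 (-0.83, SE 0.24), MRPS22 (-0.71, SE 0.23), MRPL42 (-0.59, SE 0.21) and MRPS17 (-0.56, SE 0.23). In RPRD1B_FL cells 18 genes were higher without overlap (15.6% of all genes) and 3 lower (16.9%). The largest were MRPL10, MRPL41 (0.48, SE 0.18), MRPL40 (0.46, SE 0.19), MRPS26 (0.29, SE 0.17) and MRPL17 (0.28, SE 0.18). The 3 lower were MRPL39 (-0.55, SE 0.27), MRPS36 (-0.27, SE 0.19), whose product is now known as a subunit of the 2-oxoglutarate dehydrogenase complex, and MRPL27 (-0.09, SE 0.15). For the mean effect, besides MRPL10 and MRPL39, the 4 treated libraries were above the 4 untreated ones for MRPL40 (0.31, SE 0.13) and MRPS25 (0.18, SE 0.10) and below them for MRPS36 (-0.39, SE 0.13), 3 of 74 higher and 2 lower in all, beside 3.65% and 4.06% of all genes. None of the 74 effects was called as different between the lines by edgeR or DESeq2 (0% of all genes; 3 genes with an unadjusted p under 0.05, beside 3.99% of all genes). For MRPL10 the difference of the effects was -0.29 (SE 0.26) and for MRPL39 0.36 (SE 0.36), so differences of that size are not resolved.

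The tetracycline effects of the 74 genes followed the GC content of their annotated transcripts, which ranged from 34.96% to 71.9% over the 78 genes. Across genes, which are not independent replicates, Spearman's correlation of the log2 fold change with GC content was 0.63 in FLP cells, 0.64 in RPRD1B_FL cells and 0.68 for the mean, beside 0.56, 0.45 and 0.60 over the 11750 tested genes with a GC value. Of the genes that rose, MRPL41 had 71.9% GC, MRPL4 63.2% and MRPL10 54.9%; of those that fell, MRPL19 had 42.8% and MRPL39 42.4%. Single libraries leaned too: the correlation of a library's deviation with GC content over the 74 genes was -0.61 and -0.52 in FLP, 0.34 and 0.52 in FLP_TET, 0.24 and -0.49 in RPRD1B_FL, and 0.68 and -0.21 in RPRD1B_FL_TET. The libraries of RPRD1B_FL, and those of RPRD1B_FL_TET, thus had opposite signs within the group. The part of GC content in the tetracycline effects was not tested, but a correction for it left 1 of the 5 genes called for the mean effect. The correction subtracts each library's trend with GC content, so it also removes any treatment effect that follows GC content. After it MRPL10 had a log2 fold change of 0.53 (SE 0.11, edgeR adjusted p = 0.0282), MRPL4 0.23 (SE 0.08, adjusted p = 0.123), MRPL41 0.19 (SE 0.08, adjusted p = 0.221), MRPL19 -0.49 (SE 0.14, adjusted p = 0.0672) and MRPL39 -0.55 (SE 0.16, adjusted p = 0.0771). MRPL10 also remained called in FLP cells (0.64, SE 0.16, adjusted p = 0.0419).

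**Figure D2:**
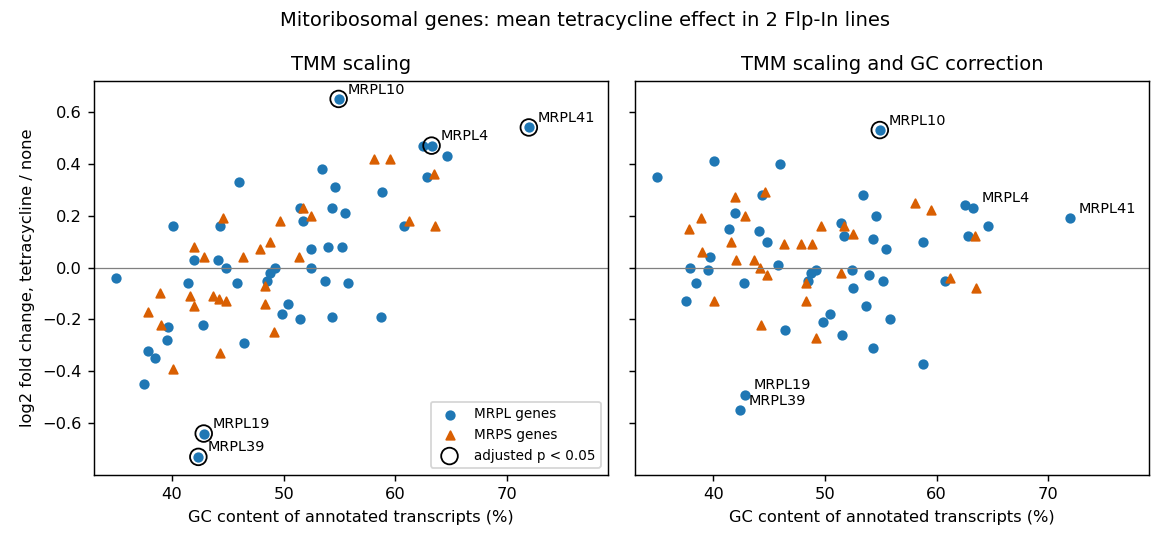
Mean tetracycline effect over both Flp-In lines (vertical, log2 fold change) against the GC content of annotated transcripts (horizontal, %) for 74 mitoribosomal genes, with MRPL and MRPS genes as separate symbols and circles around genes with an adjusted p under 0.05. The left panel, without correction, slopes upward (Spearman 0.68) with 5 circled genes. The right panel, after GC correction, is level (Spearman 0.02), because the correction subtracts the trend with GC content. MRPL10 is the 1 circled gene there.

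The share of gene counts held by all mitoribosomal genes together was 0.880% and 0.900% in FLP, 0.914% and 0.926% in FLP_TET, 0.935% and 0.901% in RPRD1B_FL, and 1.00% and 0.933% in RPRD1B_FL_TET. Treated libraries were above untreated ones in FLP cells and overlapped with them in RPRD1B_FL cells, by a few hundredths of a percentage point. Abundant genes such as MRPL4 weigh most in this sum.

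The other genes of mitochondrial gene expression were counted from lists. Proteins of the particle with other names (DAP3, AURKAIP1, PTCD3, CHCHD1, GADD45GIP1) held 0 edgeR calls of 5 tested for the mean effect, with 1 higher and 1 lower at an unadjusted p under 0.05; of all genes, 12.2% were higher and 11.8% lower by that rule. There were 0 of 14 among translation factors, 0 of 17 among mitochondrial aminoacyl-tRNA synthetases and 0 of 25 among assembly factors, with 0, 1 and 6 genes higher and 5, 2 and 1 lower at an unadjusted p under 0.05. TFAM, which packages mitochondrial DNA and starts its transcription, fell (log2 fold change -0.53, SE 0.13, edgeR adjusted p = 0.0398) and was the 1 called of 5 transcription genes tested. FASTK, of a family that acts on mitochondrial RNAs, rose (0.52, SE 0.12, adjusted p = 0.0345) as 1 of 20 RNA-processing genes, and CLPP, the protease of the mitochondrial matrix, rose (0.50, SE 0.11, adjusted p = 0.0345) as 1 of 13 proteostasis genes. Of 17 tested genes of the integrated stress response, 0 were called by edgeR, 4 were higher and 1 lower at an unadjusted p under 0.05. SHMT2, of mitochondrial one-carbon metabolism, had 0.39 (SE 0.12, adjusted p = 0.0587) and TRIB3 0.43 (SE 0.15, adjusted p = 0.0989), while SLC7A11, the cystine transporter, had -0.57 (SE 0.19, adjusted p = 0.0835) and ATF4 itself -0.13 (SE 0.13, adjusted p = 0.544). For the mean effect, edgeR called 2 of the 116 tested entries of these lists higher and 1 lower, beside 1.4% and 1.58% of all genes. The mean effect correlated with GC content over all genes (Spearman 0.6), and the part of GC content in these calls was not tested. Within FLP cells alone, edgeR called 0 of the 116 tested entries of these lists (17 higher and 18 lower at an unadjusted p under 0.05, beside 11.1% and 11.6% of all genes), and within RPRD1B_FL cells alone also 0 (6 higher, 2 lower, beside 2.95% and 3.19%).

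The clearest mitoribosomal differences in the tested comparisons, none of which set Flp-In against HEK293T, were between the 2 Flp-In lines. They concerned 2 genes. MRPL36, a small large-subunit protein whose bacterial counterpart binds zinc, was lower in RPRD1B_FL than in FLP with and without tetracycline. It had 127 and 103 CPM in FLP, 84.7 and 96.3 in FLP_TET, 43.5 and 43.8 in RPRD1B_FL, and 39.8 and 44.9 in RPRD1B_FL_TET. The highest of the 4 RPRD1B_FL libraries was well below the lowest of the 4 FLP ones. The log2 fold change of RPRD1B_FL against FLP was -1.39 (SE 0.18, edgeR adjusted p = 8.12e-05) without tetracycline and -1.10 (SE 0.18, adjusted p = 0.0015) with it.

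MRPS6, a small-subunit protein that in bacteria pairs with S18, had 106 and 86.0 CPM in FLP, 80.2 and 85.5 in FLP_TET, 49.5 and 43.8 in RPRD1B_FL, and 48.7 and 44.5 in RPRD1B_FL_TET. Again no library of one line reached those of the other. The log2 fold change was -1.04 (SE 0.18, edgeR adjusted p = 0.00235) without tetracycline and -0.83 (SE 0.18, adjusted p = 0.0177) with it. These were 2 of 74 genes called in each of these comparisons, beside 1.18% of all genes without and 1.11% with tetracycline. The other 72 were not called in either. In GENCODE 29, AP000317.2 covers the 3′ end of MRPS6 on the same strand; MRPL36 has no such neighbour.

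MRPL36 lies on the short arm of chromosome 5 (chr5:1798386-1801366) and MRPS6 on chromosome 21 (chr21:34073224-34143034). Each of these regions holds 1 other tested mitoribosomal gene. MRPS30, on the short arm of chromosome 5 (chr5:44808925-44820428), keeps its small-subunit name although its product sits in the large subunit. It had 66.7 and 56.6 CPM in FLP, 52.5 and 54.7 in FLP_TET, 45.6 and 40.2 in RPRD1B_FL, and 36.9 and 40.6 in RPRD1B_FL_TET. Its lines did not overlap, and its log2 fold changes were -0.52 (SE 0.18, edgeR adjusted p = 0.193) and -0.47 (SE 0.19, adjusted p = 0.327). MRPL39, on chromosome 21 (chr21:25585656-25607517), had -0.57 (SE 0.24, adjusted p = 0.299) without tetracycline and -0.20 with it (adjusted p = 0.885), where its libraries overlapped.

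**Figure D3:**
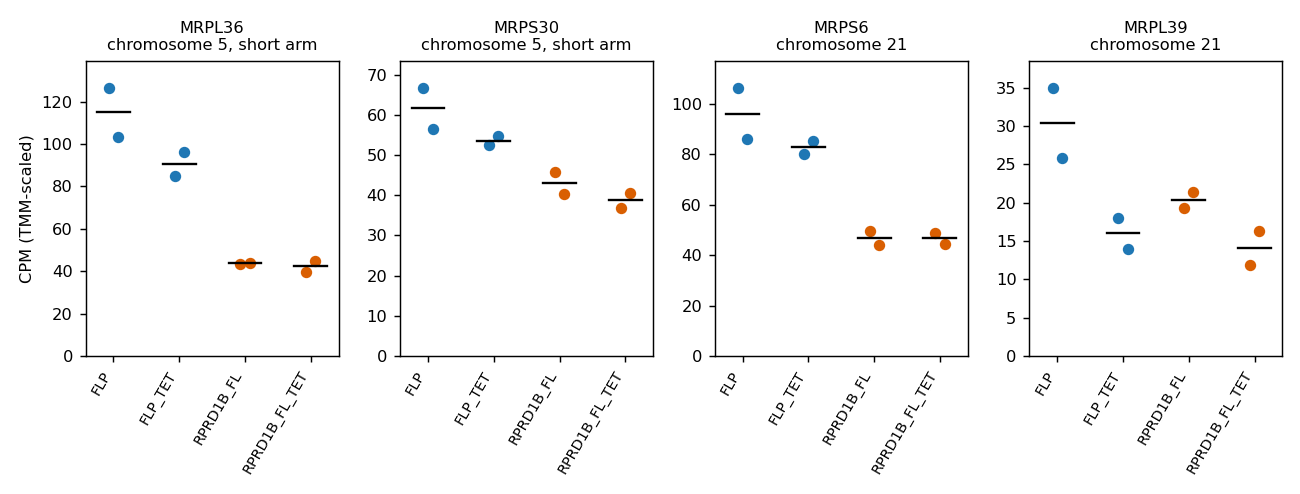
CPM (vertical, TMM-scaled, from 0) of the 4 tested mitoribosomal genes of chromosome 21 and the short arm of chromosome 5 in each library of the 4 Flp-In groups (points), with group means (bars); blue points are FLP lines and orange points RPRD1B_FL lines. For MRPL36, MRPS6 and MRPS30 every RPRD1B_FL library is below every FLP library; for MRPL39 the treated groups overlap.

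The 70 mitoribosomal genes elsewhere in the genome had median log2 fold changes of 0.09 without and 0.11 with tetracycline, beside 0.01 in both states for all 11753 tested genes elsewhere. None of the 70 was called. Without overlap, the lowest of them were MRPS17 (-0.50, SE 0.24) without tetracycline and MRPL52 (-0.48, SE 0.16) and MRPS33 (-0.15, SE 0.16) with it. The highest were MRPL41 (0.45, SE 0.18), MRPL10 (0.43, SE 0.19), MRPS12 (0.41, SE 0.18), MRPS28 (0.41, SE 0.23) and MRPL49 (0.41, SE 0.24) without tetracycline. With it they were MRPL18 (0.69, SE 0.19), MRPL20 (0.48, SE 0.14), MRPS16 (0.40, SE 0.17), MRPS9 (0.38, SE 0.16) and MRPS28 (0.34, SE 0.22). Over the 74 genes, the line difference without tetracycline correlated with GC content at 0.44 (Spearman, 0.04 after the GC correction), beside 0.26 over all genes. With tetracycline the correlation over the 74 genes was -0.02. The part of GC content in the line differences was not tested. Lower values on these chromosomes were not particular to mitoribosomal genes: the median over all tested genes was -0.73 and -0.70 on chromosome 21 (105 genes) and -0.52 in both states on the short arm of chromosome 5 (90 genes), with 38.1% and 24.4% called lower without tetracycline beside 0.442% elsewhere. Of the listed genes of mitochondrial gene expression, YBEY, an endonuclease of mitoribosome assembly on chromosome 21, was lower without tetracycline (-1.42, SE 0.28, edgeR adjusted p = 0.00784) and had -0.56 with it (SE 0.25, adjusted p = 0.415). FASTKD3, on the short arm of chromosome 5, had -1.26 (SE 0.34, adjusted p = 0.0776) and -1.19 (SE 0.35, adjusted p = 0.124). Copy number was not measured, and RPRD1B_FL is represented by 1 line, so line and insert cannot be told apart.

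A mean of the line difference over both tetracycline states, added after the values were seen, called 5 of 74 genes beside 4.08% of all genes. MRPL36 (-1.24, SE 0.13, edgeR adjusted p = 9.96e-07), MRPS6 (-0.93, SE 0.12, adjusted p = 5.39e-05), MRPS30 (-0.49, SE 0.13, adjusted p = 0.0316) and MRPL52 (-0.42, SE 0.12, adjusted p = 0.0422) were lower in RPRD1B_FL. MRPL18 was higher (0.51, SE 0.14, adjusted p = 0.0343), at 61.4, 70, 57.7 and 74.5 CPM in the 4 RPRD1B_FL libraries against 53.6, 51.9, 35.1 and 46.4 in the 4 FLP ones. MRPL52 had 71.5 to 80.8 CPM against 88.6 to 109 CPM, without overlap. MRPL18 and MRPL52 lie on chromosomes 6 and 14. DESeq2 called MRPL36 and MRPS6 alone among the 74.

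Leaving out 1 library touched the line calls as follows. MRPL36 kept its call without tetracycline in every such fit and lost it with tetracycline without FLP_TET replicate 2 (edgeR adjusted p = 0.0928). MRPS6 lost its call without FLP replicate 1 (0.0595), RPRD1B_FL replicate 2 (0.0512), FLP_TET replicate 1 (0.192), FLP_TET replicate 2 (0.293) or RPRD1B_FL_TET replicate 2 (0.0587). Its log2 fold change stayed between -1.19 and -0.76 in all alternatives. For the mean over both states, MRPL36 and MRPS6 kept their calls in 18 of 18 alternatives, while MRPL18 lost its in 11, MRPL52 in 9 and MRPS30 in 8. Without RPRD1B_FL replicate 1 or 2, or FLP_TET replicate 1 or 2, all 3 lost theirs (adjusted p 0.0503 to 0.255). MRPL18 also lost its without either FLP library or RPRD1B_FL_TET replicate 2, MRPL52 without FLP replicate 2 or RPRD1B_FL_TET replicate 1, and MRPS30 without FLP replicate 1 or RPRD1B_FL_TET replicate 1 (0.054 to 0.146).

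Silencing of RPRD genes in HEK293T cells gave no called mitoribosomal gene in the fit with a term for each siRNA group alone. Fits that also held the replicate number called some, given with the other alternatives, and the share of all genes they called is not given here. The silenced genes were checked first. RPRD1A had 149 and 165 CPM in CTRL and 14.6 to 27.9 in the groups whose labels name it. RPRD1B had 27.3 and 28.1 in CTRL and 3.99 to 14.7 in those that name it, and RPRD2 had 94.3 and 101 against 31.9 to 69.7. In the libraries labelled RPRD1A_RPRD1A_KD, whose label names RPRD1A alone, RPRD1B was low as well (14.4 and 8.06 CPM), and the names of the deposited tables for them differ from the label, so which genes were silenced there is not certain from the label. RPRD1A was also below CTRL where its name is absent (69.7 to 103 CPM in RPRD1B_KD, RPRD2_KD and RPRD1B_RPRD2_KD). In each of the 7 comparisons with CTRL, edgeR called 0 of 74 genes, beside 0.00845% of all 11834 genes (the single silencings and RPRD1A_RPRD2_KD) or 0.0169% (the other 3); DESeq2 called 0 in all 7 as well. At an unadjusted p under 0.05 there were 0 mitoribosomal genes in RPRD1A_KD (2.64% of all genes), 2 in RPRD1B_KD (3.46%), 2 in RPRD2_KD (3.84%) and 1 in RPRD1B_RPRD2_KD (2.51%). There were 2 in RPRD1A_RPRD1A_KD (3.99%), 5 in RPRD1A_RPRD2_KD (7.07%) and 4 in the triple silencing (3.99%). The lists of mitochondrial translation, assembly, transcription, RNA processing, proteostasis and stress genes likewise held 0 edgeR calls among 117 tested entries in all 7, with 1 to 3 higher in 6 of the groups and 1 to 5 lower at an unadjusted p under 0.05 (none higher in RPRD1B_KD). The median log2 fold change lay between -0.06 and 0 in all 7. The 7 comparisons share the 2 CTRL libraries, so their values are not independent of one another. The median SE was 0.21, and in data simulated for RPRD1A_KD a 2-fold change was recovered in 43% of the changed genes. In those simulated data 136 genes were called, against 1 in the real RPRD1A_KD comparison. The adjustment is stricter where few genes differ, so 2-fold changes may be missed more often than the simulation shows, and smaller ones more often still.

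MRPL12 had the lowest p in the triple silencing. It had 664 and 687 CPM in CTRL, 620 and 615 in RPRD1A_KD, 640 and 649 in RPRD1B_KD, 748 and 644 in RPRD2_KD, 531 and 530 in RPRD1A_RPRD1A_KD, 536 and 683 in RPRD1A_RPRD2_KD, 527 and 509 in RPRD1B_RPRD2_KD, and 486 and 422 in RPRD1A_RPRD1B_RPRD2_KD. The triple group held the lowest values of all 16 libraries, with a log2 fold change of -0.57 (SE 0.15, unadjusted p = 0.0014, edgeR adjusted p = 0.921). In RPRD1B_RPRD2_KD it was -0.38 (SE 0.15, unadjusted p = 0.0209, adjusted p = 1). The effects of the triple silencing correlated with GC content over the 74 genes at -0.44 (Spearman, -0.27 after the GC correction), with -0.43 and -0.32 in its libraries beside 0.23 and 0.12 in CTRL, and the transcript of MRPL12 has 64.6% GC. With the GC correction its log2 fold change was -0.45, and the part of GC content in the result was not tested further. In GENCODE 29, AC139530.2 overlaps its 3′ end on the same strand.

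MRPS18A, 1 of 3 human relatives of bacterial S18 and a protein of the large subunit, had 106 and 125 CPM in CTRL, 51.7 and 79.2 in the libraries labelled RPRD1A_RPRD1A_KD, 80.7 and 89.2 in RPRD1B_KD, and 78.1 and 77.9 in RPRD1A_RPRD1B_RPRD2_KD. These 3 groups lay below CTRL without overlap, as did RPRD1B_RPRD2_KD (93.1 and 88.3) and, narrowly, RPRD2_KD (104.1 and 105.8). The log2 fold change in RPRD1A_RPRD1A_KD was -0.81 (SE 0.20, unadjusted p = 9.14e-04, edgeR adjusted p = 0.832). The effects of that group correlated with GC content over the 74 genes at -0.42 (Spearman, -0.23 after the GC correction). The transcript of MRPS18A has 58.1% GC, and the part of GC content was not tested. MRPL41 had the lowest p in RPRD1A_KD (-0.30, SE 0.19, unadjusted p = 0.127, edgeR adjusted p = 1) and RPRD2_KD (-0.42, SE 0.19, unadjusted p = 0.041, adjusted p = 1), and MRPS18A in RPRD1B_KD (-0.44, SE 0.20, unadjusted p = 0.0375, adjusted p = 1). The correlation with GC content over the 74 genes was -0.31 in RPRD1A_KD, -0.19 in RPRD2_KD and -0.25 in RPRD1B_KD, and MRPL41 has 71.9% GC.

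MRPL36 had the lowest p in RPRD1A_RPRD2_KD, at 34.98 and 26.4 CPM against 63.9 and 45.1 CPM in CTRL (log2 fold change -0.84, SE 0.23, unadjusted p = 0.00193, edgeR adjusted p = 0.619). The second library of that group stands apart. Its deviation correlated with GC content at 0.56 over the 74 genes, beside -0.43 to 0.23 in the other 15 HEK293T libraries. It held 8.02 CPM of MRPL32 against 40.5 in its replicate, and 1.00 CPM of MRPL39 against 19.7. With that library as the only one of its group, some of the 74 genes were called by edgeR, and with the first library as the only one none were. A lone library is taken to vary like the other groups. The share of all genes called in those fits is not given here.

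**Figure D4:**
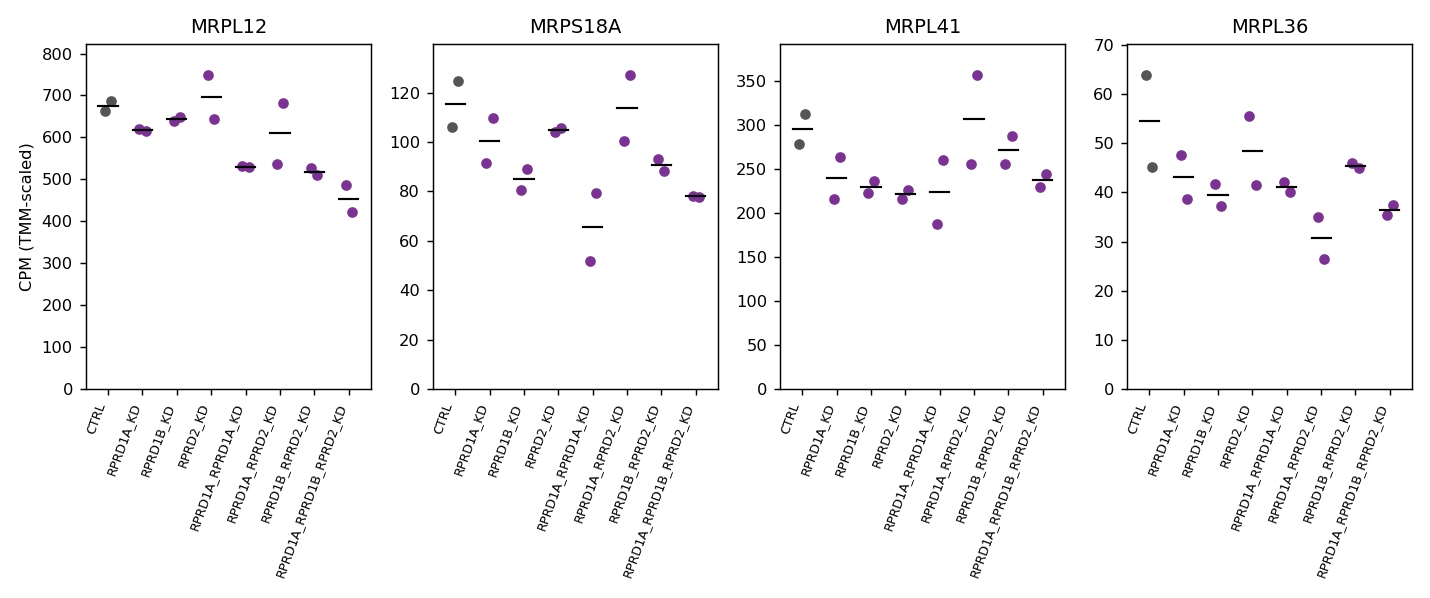
CPM (vertical, TMM-scaled, from 0) of MRPL12, MRPS18A, MRPL41 and MRPL36 in the 16 HEK293T libraries by siRNA group (points, control in grey), with group means (bars). MRPL12 is lowest in RPRD1A_RPRD1B_RPRD2_KD, MRPS18A in RPRD1A_RPRD1A_KD and MRPL36 in RPRD1A_RPRD2_KD; none of these differences passed the test.

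**Figure D5:**
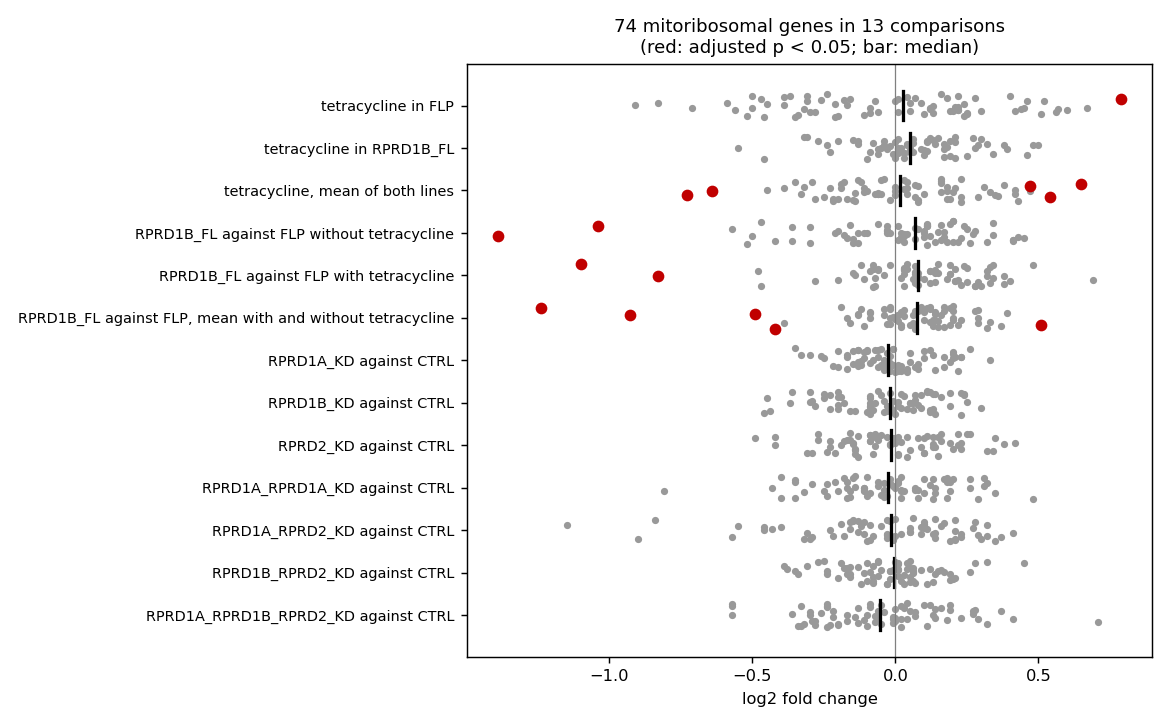
Log2 fold changes (horizontal) of the 74 tested mitoribosomal genes in 13 comparisons (rows), with black bars at the medians and red points for an adjusted p under 0.05. Red points appear in 5 of the 6 Flp-In rows and in none of the 7 silencing rows, and every median lies between -0.06 and 0.08.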

How the data were processed

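The authors deposited 1 table of raw read counts per library, by gene name; FastQC, STAR, HTSeq, DESeq2 and the build GRCh38 are named in the submitters' processing notes, without versions or roles. The annotation release, strand setting and filters are not given in the sources used here. Libraries were made with the QuantSeq 3′ REV kit from TRIzol RNA, per the labels' protocols. The 5 closing rows that name no gene were left out; reads outside genes were 15.3% to 36.7% of a library's reads. The tables carry no molecular identifiers, so floors cover counting error only.

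Tests were run with edgeR 4.0.16 and limma 3.58.1 (R 4.3.3), all libraries of a cell line in 1 fit with a term per group: filterByExpr (minimum count 10, minimum total 15), TMM scaling, quasi-likelihood test, Benjamini-Hochberg adjustment over all genes tested (11948 in Flp-In, 11834 in HEK293T), called at an adjusted p under 0.05. SE was derived from the fold change and the square root of F. Levels of single libraries are TMM-scaled CPM, those across cell lines plain CPM. In simulated data with the real means and library sizes, edgeR recovered 58.2% of 2-fold and 95.9% of 4-fold changes for tetracycline in FLP (11948 genes run), 85% and 100% for the mean of both lines (11948 genes) and 43% and 85.7% for RPRD1A_KD (11834 genes). For RPRD1A_KD 136 genes were called in the simulated data and 1 in the real data, so the shares recovered there are not those of the real fit.

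Groups came from the labels. The genes and lists were chosen with earlier results of these data known. Genes named were all mitochondrial mRNAs, all called members, up to 5 in each direction with the largest change and no overlap at a mean of 10 CPM or more, the member with the lowest p in each silencing, members on chromosome 21 and the short arm of chromosome 5, the 3 most and 3 least abundant, and up to 2 per direction in other lists; those named for their levels across cell lines, the 4 near 0, and MRPL32 were chosen after their values were seen. GENCODE 29 gave places, overlaps and transcript GC content, and RefSeq GRCh38.p14 the promoters. The GC correction subtracts a lowess curve (span 0.3) of each library's log2 deviation on GC content. Other alternatives were RLE factors, library size alone, DESeq2 1.42.0, other count filters, the replicate number as a block, a fit of only the compared groups and leaving out single libraries. Added after the data were seen were DESeq2 without its independent filtering, omission of the second RPRD1A_RPRD2_KD library and the mean line difference.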

Additional observations from a re-analysis of the deposited data

How the results depend on the processing

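Numbers of mitoribosomal genes called depended on the processing where adjusted p lay near 0.05. The share of all genes called in these alternatives is not given here, so a larger number is not read as a result about these genes. For tetracycline in FLP cells (1 called) the number was 0 with library size alone, with a mean count of 50 or more and by DESeq2 without independent filtering, 2 by DESeq2, 11 with no filter on low counts, 15 in a fit of only the compared groups, and 0 to 4 with a library left out. In RPRD1B_FL cells (0 called) it was 0 to 3 with a library left out. For the mean of both lines (5 called) it was 10 with no filter, 0 with a mean count of 50 or more, 1 with the GC correction, 3 by DESeq2 without independent filtering, and 0 to 22 with a library left out. For RPRD1B_FL against FLP (2 called in each state) it was 1 to 2 without and 0 to 7 with tetracycline when a library was left out, and 5 with tetracycline after the GC correction. The mean line difference (5 called) gave 2 by DESeq2 with or without independent filtering, 8 with the GC correction and 2 to 7 with a library left out. In the line comparison with tetracycline, MRPL39 ranged from -0.44 to 0.02 with a library left out, the latter without RPRD1B_FL_TET replicate 1. In RPRD1A_RPRD2_KD (0 called) the number was 1 with no filter and 0 to 9 with a library left out. Except where construction shows it (fewer samples, fewer or more genes tested), the cause was not tested. MRPL23, MRPL38, MRPL53 and MRPS24 could not be tested at this depth.

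Replicate numbers were not treated as pairs in the main fits. Same-numbered libraries deviated together with a mean correlation of -0.018 in Flp-In (6 pairs of groups, -0.357 to 0.46). In HEK293T the mean correlation was 0.333 (28 pairs, -0.011 to 0.524). Reads outside genes there were 34.3% to 36.7% in replicate 1 and 27.4% to 29.8% in replicate 2 libraries. The main HEK293T fit thus left a difference shared by same-numbered libraries in its spread. With the replicate block, 0 were called for tetracycline in FLP. With block and GC correction, the numbers were 2 for the mean of both lines, 5 for the lines with tetracycline, 9 for the mean line difference and 1 (MRPS18A) for RPRD1A_RPRD1A_KD. When the block was used and the second RPRD1A_RPRD2_KD library left out, they were 1 for RPRD2_KD, 3 for RPRD1A_RPRD1A_KD, 1 for RPRD1B_RPRD2_KD and 2 for RPRD1A_RPRD1B_RPRD2_KD. The share of all genes called in these blocked fits is not given here, so their numbers are not read as a response of the mitoribosomal genes. A fit of only the compared groups does not exist for effects averaged over or compared between lines. MRPL36 was lower in RPRD1B_FL in all alternatives (-1.53 to -1.24 without and -1.18 to -1 with tetracycline).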
